A study of Mus musculus with 18 samples.

Results

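The liver tumors with the most and the least mRNA of dividing cells were set against each other. Of 12 advanced tumors of Alb-R26Met mice, 11 were ranked, and the 5 ranked highest (high tumors) and the 5 ranked lowest (low tumors) were selected by a ranking score, the mean of log2(value + 1) over Mki67, Top2a, Ccnb1 and Cdk1. These 10 tumors are part of 18 samples, which also hold the middle tumor of the ranking, tumor 2, which was not ranked, and 6 non-tumoral livers. Bulk RNA-seq of poly-A RNA was made from male mice in which Cre under the albumin (Alb) promoter switches on a mouse-human chimeric Met receptor transgene at Rosa26 in cells of the hepatocyte lineage, and the livers came from mice of the same genotype without tumors. The 5 high tumors came from mice aged 49 to 69 weeks (median 67), the 5 low tumors from mice aged 49 to 72 weeks (median 59) and the livers from mice aged 52 to 71 weeks (median 56.5). For tumors 3 and 10 the mouse number in the labels differs from that in the list of ages, so their ages, 59 and 67 weeks, rest on the sample name. The sample names carry a tag, E19 or E20, whose meaning is not given in the sources used here, and 4 high and 3 low tumors carried E19. Tumor 11 (high) and tumor 12 (low) came from 1 mouse, so the 10 tumors came from 9 mice. No treatment is given in the labels, and each tumor is a separate sample, so the p-values measure the spread between these tumors.

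A cell that divides copies its DNA in S phase and separates the copies in mitosis, and genes for each step are switched on in turn. Mki67 encodes Ki-67, a protein coating mitotic chromosomes and used in pathology to count cycling cells. Top2a encodes the topoisomerase that untangles DNA strands before division, and Ccnb1 and Cdk1 encode cyclin B1 and the kinase that it activates to start mitosis. Adult hepatocytes rarely divide, whereas liver cancer cells do. Many genes of S phase carry promoter sites for E2F factors, and many genes of mitosis carry a CCAAT box and a cell cycle homology region.

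The values are transcript abundances (TPM), which take gene length into account, rounded to whole numbers by the authors. Before any comparison Siglece and Gm26917 were dropped, and each sample was rescaled to a total of 1000000, because Siglece alone took 23.7 to 53.4% of the deposited total in the high tumors and 21.5 to 41.3% in the low tumors. A deposited value of 1 became 1.63 to 2.55 in the high and 1.68 to 2.18 in the low tumors, so small values move in steps of that size. The paper states a single read number for all samples, and the depth reached in each sample is not known here. The deposited totals of the 10 tumors were 849707 to 907513, and 11508 to 13478 genes were above 0 in the high and 11587 to 13819 in the low tumors. By tag, 13270 to 13819 genes were above 0 in the ranked E20 tumors and 11508 to 12394 in the ranked E19 tumors. In tumor 2 Siglece took 82.9% of the total and a value of 1 became 8.90, and for this reason it was not ranked. Tumor 11 had the highest Siglece share among the ranked tumors.

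Values of single tumors are given in the order of the ranking throughout, as tumors 10, 9, 5, 11 and 1 for the high group and tumors 8, 3, 12, 7 and 4 for the low group. The ranking scores of the high tumors were 3.68, 3.41, 3.39, 2.63 and 2.60, and those of the low tumors were 2.55, 2.32, 1.9999, 1.63 and 1.46. The middle tumor, tumor 6, scored 2.56, so the scores on both sides of the boundary, 2.60 and 2.55, lay close together, while tumors 10, 9 and 5 stood apart from the other 8. The 6 livers scored between 0 and 0.74.

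**Figure D1:**
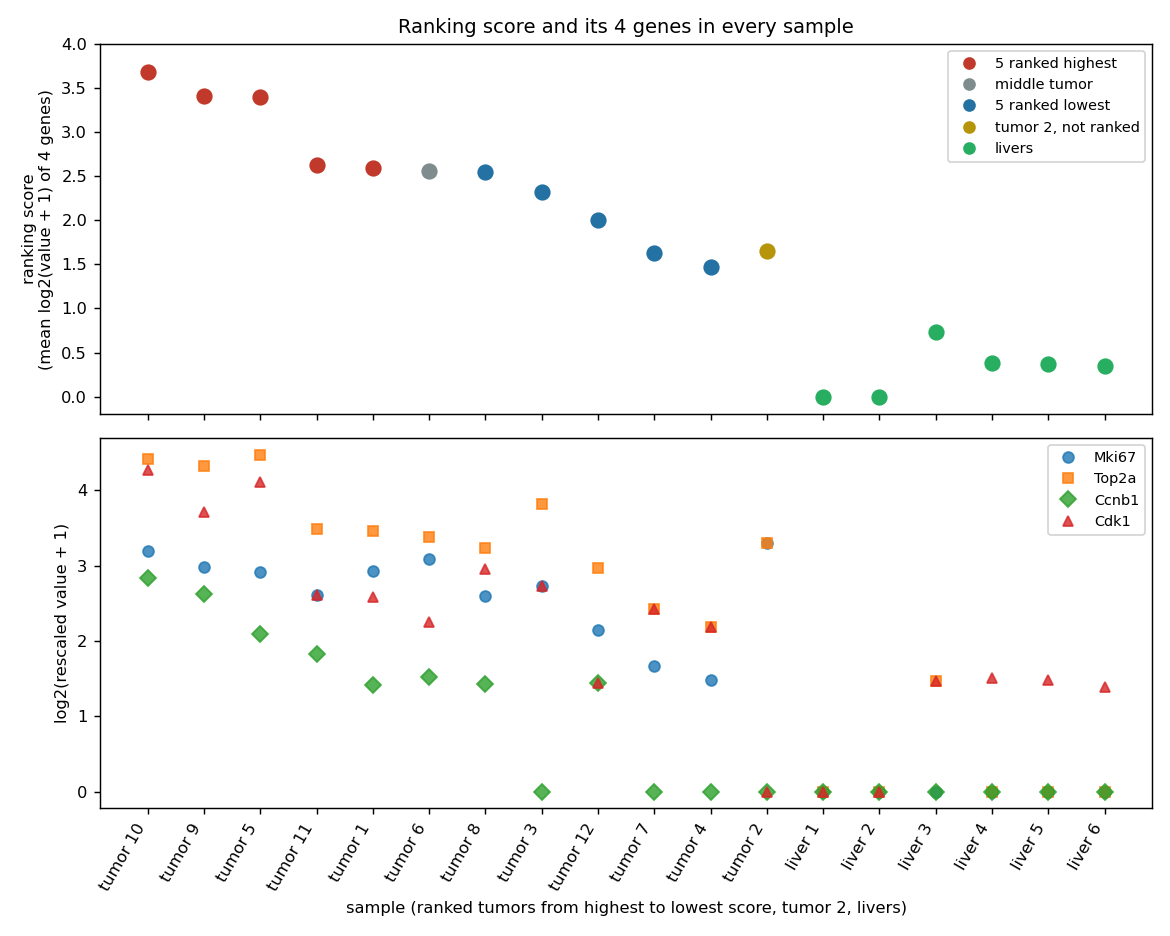
The upper panel plots the ranking score (mean log2(value + 1) of 4 genes) of every sample, with the ranked tumors from highest to lowest, tumor 2 and the livers, and the lower panel plots log2(rescaled value + 1) of Mki67, Top2a, Ccnb1 and Cdk1 in each. Tumors 10, 9 and 5 score between 3.39 and 3.68, the 8 other ranked tumors lie between 1.46 and 2.63, and the livers lie between 0 and 0.74.

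These scores and the values of the 4 ranking genes chose the groups, so they are given as a description with no test. Mki67 was at 8.17, 6.92, 6.51, 5.09 and 6.65 in the high tumors and at 5.05, 5.64, 3.43, 2.18 and 1.78 in the low tumors. It was listed at 0 in every liver. Top2a was at 20.4, 19.02, 21.2, 10.2 and 9.97 in the high and at 8.41, 13.2, 6.85, 4.37 and 3.57 in the low tumors. Cdk1 was at 18.4, 12.1, 16.3, 5.09 and 4.99 in the high and at 6.73, 5.64, 1.71, 4.37 and 3.57 in the low tumors. Ccnb1 was at 6.12, 5.19, 3.26, 2.55 and 1.66 in the high and at 1.68, 0, 1.71, 0 and 0 in the low tumors. Each of the 4 genes overlapped between the groups, and tumors 10, 9 and 5 lay above the 8 other ranked tumors for Top2a, Cdk1 and Ccnb1 but not for Mki67. Because every tumor in both groups held Mki67, Top2a and Cdk1 above 0, the low tumors are tumors with less of these mRNAs, not tumors without them. When the tumors were ranked on the deposited values without rescaling, tumor 8 moved up to the fifth place and tumor 11 down to the eighth, and values under this order are given below for the lists and genes that it moved most.

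The promoters of the 4 ranking genes and of Rrm2, the tested cell cycle gene with the smallest p, were searched for sequence letters that cell cycle genes are known for. The 250 bases before the first listed transcription start were taken from RefSeq on GRCm38.p6, the build of the files, and are printed 5′ to 3′ on the strand of the gene. Capitals mark the CCAAT box, the cell cycle homology region with the letters TTTGAA, and 4 E2F-type motifs, each searched on both strands. The letters of the first E2F-type motif were TTTCGCGC and those of the second TTCCCGCC. The third was searched as TTGGCGGG and the last as TTGGCGC. Mki67 (chr7:135716380-135716629, minus strand), Top2a (chr11:99024190-99024439, minus strand), Ccnb1 (chr13:100786487-100786736, minus strand), Cdk1 (chr10:69352913-69353162, minus strand) and Rrm2 (chr12:24708004-24708253, plus strand) read as follows.
Mki67: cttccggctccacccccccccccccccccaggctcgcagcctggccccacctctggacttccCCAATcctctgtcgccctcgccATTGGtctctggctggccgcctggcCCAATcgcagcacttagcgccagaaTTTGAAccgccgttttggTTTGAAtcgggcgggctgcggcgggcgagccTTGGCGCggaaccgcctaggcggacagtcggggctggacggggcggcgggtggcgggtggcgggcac
Top2a: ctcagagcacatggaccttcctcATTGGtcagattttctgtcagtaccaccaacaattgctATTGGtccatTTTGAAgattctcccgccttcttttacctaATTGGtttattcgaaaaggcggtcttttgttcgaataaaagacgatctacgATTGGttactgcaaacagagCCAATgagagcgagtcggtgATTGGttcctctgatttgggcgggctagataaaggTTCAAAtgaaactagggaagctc
Ccnb1: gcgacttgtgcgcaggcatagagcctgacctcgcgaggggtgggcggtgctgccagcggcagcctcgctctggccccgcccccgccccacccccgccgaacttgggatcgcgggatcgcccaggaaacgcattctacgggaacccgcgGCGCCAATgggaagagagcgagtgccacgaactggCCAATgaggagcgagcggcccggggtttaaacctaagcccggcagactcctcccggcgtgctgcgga
Cdk1: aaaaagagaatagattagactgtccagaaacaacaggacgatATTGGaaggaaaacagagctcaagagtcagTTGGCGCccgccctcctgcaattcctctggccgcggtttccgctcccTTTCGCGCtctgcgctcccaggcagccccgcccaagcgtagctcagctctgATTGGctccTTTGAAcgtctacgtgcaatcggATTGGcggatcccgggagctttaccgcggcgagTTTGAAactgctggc
Rrm2: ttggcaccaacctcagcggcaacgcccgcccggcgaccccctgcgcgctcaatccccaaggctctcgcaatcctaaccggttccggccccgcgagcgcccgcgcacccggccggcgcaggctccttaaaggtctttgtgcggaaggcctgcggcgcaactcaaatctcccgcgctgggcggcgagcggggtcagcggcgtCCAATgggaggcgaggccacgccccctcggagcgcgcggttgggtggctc
The Mki67 promoter held 3 CCAAT boxes, 2 homology regions and 1 TTGGCGC, and the Top2a promoter held 6 CCAAT boxes and 2 homology regions. The Cdk1 promoter held 3 CCAAT boxes, 2 homology regions, 1 TTGGCGC and 1 TTTCGCGC. The Ccnb1 promoter held 2 CCAAT boxes, 1 of them overlapping its TTGGCGC on the other strand, and the Rrm2 promoter held 1 CCAAT box. A promoter was in the table for 9631 of the 12269 genes tested and for 121 of the 152 tested members of the cell cycle lists described below. CCAAT on either strand was in 63.6% of the cell cycle promoters and in 36.8% of all, TTTGAA in 24% and 11%, and any of the E2F-type letters in 19% and 8.47%. Both a CCAAT box and TTTGAA were in 19.8% of the cell cycle promoters and in 4.34% of all. The male-biased genes described below, with a promoter for 14 of 22, held TTTGAA in 42.9% and CCAAT in 42.9%, so TTTGAA was not particular to the cell cycle lists. These are matches of letters and not sites shown to be bound.

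No gene was called between the high and the low tumors. With limma on log2(value + 1), 12269 genes were tested and 0 passed an adjusted p under 0.05 (0% of the genes, lowest adjusted p 0.216), while 1200 had an unadjusted p under 0.05. Of these, 882 were higher (7.19%) and 318 lower (2.59%) in the high tumors. The median log2 fold change of all genes was 0.07, and with trimmed mean (TMM) scaling in its place it was -0.012 and the split was 459 higher and 538 lower, so the excess of higher genes depended on the scaling. With the ranking on deposited values the median of all genes was 0.186, with 1062 higher (8.66%) and 53 lower (0.432%) at an unadjusted p under 0.05. In 184 genes (1.5%) every high tumor lay above every low tumor, and in 53 genes (0.432%) every high tumor lay below every low tumor. On the deposited values without rescaling these numbers were 25 and 17, and 20 and 14 genes were apart on both scales, so most of the separation appeared only after rescaling. Statements below on groups that do not overlap are for the rescaled values. Counts at an unadjusted p are used below only to describe gene lists beside these shares, and no single gene among them passed the threshold. In bulk samples, fewer cells of a type and less RNA per cell cannot be told apart.

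Genes of the cell cycle as a group lay higher in the high tumors. Cell cycle genes were measured in the libraries that gave the ranking, so their order is no independent check of it. Of 184 listed genes, 181 were in the table and 152 were tested without the 4 ranking genes. The log2 fold change was above 0 in 138 of 152, with a median of 0.456 against 0.07 for all genes (0.382 with TMM scaling). At an unadjusted p under 0.05, 48 members (31.6%) were higher and 1 was lower, and 0 passed the adjusted threshold. The count of higher members was 35 with TMM scaling and 27 on the deposited values without rescaling, where it was 1 in the DNA synthesis, the G1 and S phase, the chromatin and the repair lists and 9 in the spindle list. The count of 48 was 22 without tumor 9, 23 without tumor 5 or tumor 10, 28 without tumor 4 or tumor 12 and 31 without tumor 7, and the median stayed between 0.407 and 0.591 with each tumor left out in turn. With the ranking on deposited values, the count was 63 and the median 0.586. The deposited values of 90 of the 152 genes were never above 5, and with a stricter filter (a rescaled value of at least 5 in at least 5 tumors) 68 genes were tested, of which 58 were above 0, with a median of 0.41.

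In 6 of the 152 cell cycle genes (3.95%, against 1.5% of all genes) every high tumor lay above every low tumor. These were Ccne2, Ect2, Mcm6, Mcm2, Gins4 and Rrm2, and on the deposited values 0 of them did so. In 1 gene, Mcm10, every high tumor lay below every low tumor, against 0.432% of all genes. For Ccne2 and Ect2 tumor 11 was at a deposited value of 1, which low tumors also had.

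For most of the tested cell cycle genes the mean of the low tumors lay between those of the livers and the high tumors. In 131 of 152 the mean of the livers was below the mean of the low tumors, and in 123 the means rose from livers through low to high tumors. In 41 genes all 6 livers were listed at 0. Genes were taken for testing by their values in the tumors alone, which favors genes that are lower in the livers. The share of all genes with this order was not counted. The summed value of the 181 genes was 2039, 1807, 1835, 1169 and 1739.8 in the high tumors, 1373 in the middle tumor and 1506, 1366, 1085, 1131 and 952 in the low tumors, against 805 to 1271 in the livers. Tumor 11, with 1169, lay below tumors 8 and 3 of the low group. It also had 123 of the 181 genes above 0, against 158 to 168 in the other high tumors.

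**Figure D2:**
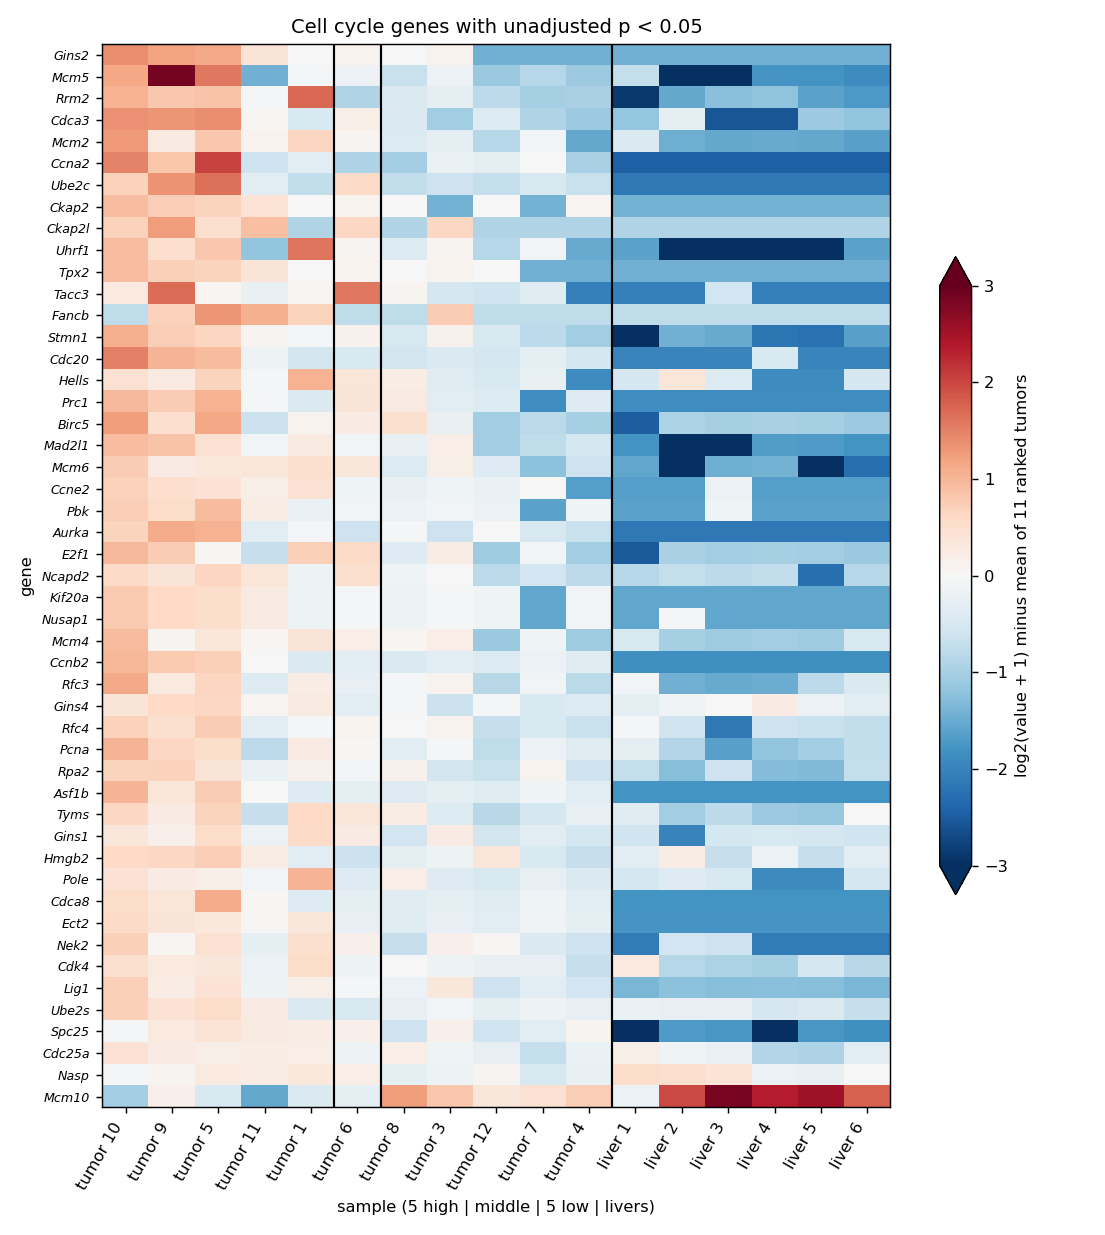
Rows are the 49 cell cycle genes with an unadjusted p under 0.05 and columns the ranked tumors from highest to lowest (lines mark off the middle tumor) and the 6 livers; colors give log2(value + 1) minus the mean of the 11 ranked tumors, clipped at 3. Tumors 10, 9 and 5 are red in most rows, tumor 11 is mixed, the livers are blue in most rows, and Mcm10 in the last row runs the other way.

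The replication origin and helicase genes, which load and start the machinery that unwinds DNA, had a median log2 fold change of 0.582 over 17 members. At an unadjusted p under 0.05, 7 were higher and 1 lower (4 higher without tumor 4 or tumor 12, 11 without tumor 11). Mcm2, a subunit of the helicase, was at 18.4, 8.65, 13.02, 7.64 and 11.6 in the high tumors and at 5.05, 5.64, 3.43, 6.55 and 1.78 in the low tumors, with livers at 1.62 to 4.91. The rescaled groups did not overlap, whereas on the deposited values tumor 11 was at 3 like tumors 8, 3 and 7, and the log2 fold change was 1.25 (SE 0.31, limma adjusted p 0.402). Mcm6, another subunit, was at 16.2 ± 2.59 (SD, n = 5) in the high and 8.33 ± 3.19 in the low tumors, again without overlap after rescaling. Mcm5 was at 20.4, 69.2 and 27.7 in tumors 10, 9 and 5 and between 2.55 and 8.31 in the 8 other ranked tumors. Mcm10, which helps to start replication, had the opposite order, at 4.08, 10.4, 6.51, 2.55 and 6.65 in the high and 23.6, 16.9, 12.0, 13.1 and 16.1 in the low tumors, with a liver median of 45.8. All 5 low tumors lay above all 5 high tumors after rescaling, and 5 of 6 livers lay above both groups. Its log2 fold change was -1.37 (SE 0.30, limma adjusted p 0.311), and -0.26 with the ranking on deposited values.

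The DNA synthesis and nucleotide supply genes had a median of 0.361 over 27 members, with 7 higher and 0 lower at an unadjusted p under 0.05. This count was 1 without tumor 10 or tumor 12, 2 without tumor 5, 4 or 7, 3 without tumor 9, 11 without tumor 11 and 14 with the ranking on deposited values. Rrm2 (chromosome 12, 24708254 to 24714146), the ribonucleotide reductase subunit that makes DNA building blocks, was at 38.8, 32.9, 34.2, 17.8 and 63.1 in the high and at 13.5, 15.05, 10.3, 8.73 and 8.92 in the low tumors. The middle tumor was at 9.39 and the livers at 1.64 to 7.37, so every high tumor lay above every other sample after rescaling, but on the deposited values tumor 11, at 7, was below tumors 8 and 3, both at 8. Its log2 fold change was 1.56 (SE 0.29, limma adjusted p 0.216). Pcna, the sliding clamp of DNA polymerase, was at 174, 129.7, 122, 48.4 and 101 in the high and at 67.3, 82.8, 49.7, 74.2 and 66.0 in the low tumors. Here tumor 11 lay below every low tumor, and the log2 fold change was 0.66 (SE 0.29). Impdh2 and Dtymk, abundant members of this list, had log2 fold changes of 0.29 and 0.21.

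The G1 and S phase regulators had a median of 0.394 over 17 members, with 4 higher at an unadjusted p under 0.05 (2 without tumor 1, 9, 10, 4 or 12). Cdk4, the kinase that starts the passage out of G1, was at 73.5, 64.0, 66.7, 45.8 and 76.4 in the high and at 52.2, 47.0, 44.5, 43.7 and 32.1 in the low tumors, a log2 fold change of 0.56 (SE 0.18, limma adjusted p 0.44). Tumor 11 lay below tumors 8 and 3 of the low group, and the other high tumors lay above the low group. Ccnd1, its cyclin partner, was at 38.2 to 110.2 in the high and 30.3 to 96.0 in the low tumors, and a liver reached 179.9. The log2 fold change of Ccnd1 was 0.48 with an SE of 0.35. E2f1, a transcription factor of S phase genes, had a log2 fold change of 0.83 and Ccne2, a cyclin of S phase entry, 0.89.

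The mitotic kinases, cyclins and checkpoint genes had a median of 0.553 over 24 members, with 9 higher at an unadjusted p under 0.05 (3 without tumor 5, 4 without tumor 9 or tumor 10). Mad2l1, which holds division until chromosomes are attached, was at 16.3, 15.6, 11.4, 7.64 and 9.97 in the high and at 6.73, 9.41, 3.43, 4.37 and 5.35 in the low tumors. Cdc20, which releases that hold, was at 10.2, 6.92, 6.51, 2.55 and 1.66 in the high and at 1.68 to 2.18 in the low tumors. Ube2c, a ubiquitin carrier of the same step, was at 6.12, 10.4, 13.02, 2.55 and 1.66 in the high and at 1.68 to 2.18 in the low tumors. For both genes the low tumors were all at a deposited value of 1, and tumors 11 and 1 lay with them. Ccna2, cyclin A2, was at 14.3, 8.65 and 21.2 in tumors 10, 9 and 5 and between 1.68 and 4.37 in the 8 other ranked tumors. It was listed at 0 in every liver.

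The spindle, kinetochore and cytokinesis genes had a median of 0.599 over 35 members (0.426 over the 6 that passed the stricter filter). The deposited values of 27 of the 35 were never above 5. For all 35 the mean of the high tumors was above that of the low tumors and the liver mean was below both. At an unadjusted p under 0.05, 14 were higher (6 without tumor 9, 7 without tumor 5, 8 without tumor 10 or tumor 7). Cdca3, which promotes entry into mitosis, was at 14.3, 13.8, 14.7, 5.09 and 3.32 in the high and at 3.36, 1.88, 3.43, 2.18 and 1.78 in the low tumors, a log2 fold change of 1.51 (SE 0.38, limma adjusted p 0.402). Stmn1, stathmin, which destabilizes microtubules, was at 26.5, 20.8, 19.5, 12.7 and 11.6 in the high and at 8.41, 13.2, 8.57, 6.55 and 5.35 in the low tumors. Only tumor 3 of the low group reached into the range of the high group. Birc5, survivin, a subunit of the chromosomal passenger complex, was at 7.62 ± 4.15 (SD, n = 5) in the high and 3.23 ± 2.12 in the low tumors.

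The chromatin factors of dividing cells had a median of 0.389 over 13 members, with 5 higher at an unadjusted p under 0.05 (2 with TMM scaling) and a count of 1 to 3 without tumor 1, 5, 9, 10, 4, 7, 8 or 12. Uhrf1, which maintains DNA methylation at replication, was at 14.3, 10.4, 13.02, 2.55 and 23.3 in the high and at 5.05, 7.52, 3.43, 6.55 and 1.78 in the low tumors, while Dnmt1, the methyltransferase it recruits, had a log2 fold change of -0.06. The recombination repair genes had a median of 0.294 over 19 members and 2 higher (0 without tumor 9, 4 or 12 1 without tumor 1, 5, 10, 3 or 7 or with TMM scaling, and 8 with the ranking on deposited values). Atm and Atr, kinases that sense DNA damage, were at log2 fold changes of -0.22 and 0.14.

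When all 11 ranked tumors were used, with a slope on the ranking score, 5 of 12506 genes passed an adjusted p under 0.05 (0.04%), Gins2, Cdca3, Stmn1, Tcf19 and Tubb4b. These 5, like the 13 genes of the next comparison, are named because they passed, after their values were seen. Gins2, a subunit of the replication helicase complex, was at 6.12, 5.19, 4.88, 2.55 and 1.66 in the high and at 1.68, 1.88, 0, 0 and 0 in the low tumors and was listed at 0 in every liver, with a slope of 1.41 on the log2 scale for each unit of the score (limma adjusted p 0.0153). Tcf19, a nuclear protein whose mRNA peaks at the start of S phase, was at 18.4, 15.6, 14.7, 7.64 and 9.97 in the high and at 11.8, 9.41, 6.85, 4.37 and 3.57 in the low tumors (slope 0.87, limma adjusted p 0.0153). Tubb4b, a tubulin that is also made by cells at rest, was at 469.5, 327, 414, 229 and 273 in the high and at 288, 181, 123, 181 and 116 in the low tumors (slope 0.83, limma adjusted p 0.0392). Its livers ranged from 56.9 to 424, across both groups. The slopes of Cdca3 and Stmn1 were 1.24 and 0.88, with adjusted p of 0.0347 and 0.0153 in limma. The score enters this fit as measured, and 3 of the 5 genes belong to the cell cycle lists.

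The 3 tumors that stood apart in the score, tumors 10, 9 and 5, were also set against the other 8 ranked tumors, a comparison chosen after the scores were seen. In it 13 of 12506 genes passed an adjusted p under 0.05 (0.104%), and in 532 genes (4.25%) each of the 3 lay above every other ranked tumor. The 13 genes were Mcm5, Ccna2, Cdc20 and Cdca3 of the cell cycle lists, the histone genes H2bc6, H2bc12, H3c10, H3c11 and H2ac24, Lbr, which anchors chromatin to the nuclear envelope, Ms4a7 and Cybc1, which are expressed in myeloid cells, and Gstm3, a glutathione transferase. Mcm5 had a log2 fold change of 2.56 and Ccna2 of 1.99, both with an adjusted p of 0.0261 in limma. Tumors 10, 9 and 5 all carried the tag E19. Of the other 8, tumors 11, 3, 7 and 4 carried E19 and tumors 1, 6, 8 and 12 carried E20. Every ranked tumor tagged E20 had more genes above 0 than every one tagged E19, and the part of the tag in this comparison was not tested.

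Histone genes, which package newly copied DNA, were looked at as a family after 5 of them had passed this comparison. Of the 59 histone genes measured, 49 were tested, and all 49 had a log2 fold change above 0 in the 3 tumors against the other 8, with a median of 1.126 against 0.046 for all genes. Of all genes, 6813 of 12506 were above 0. For 29 of the 49 each of the 3 tumors lay above all 8 others, against 4.25% of all genes. These counts include the 5 genes that led to this look. H3c11 was at 204, 128 and 169 in tumors 10, 9 and 5, at 26.3 to 67.7 in the other 8 and at 4.86 to 10.7 in the livers. H2ac24 was at 83.7, 89.9 and 132 in the 3 tumors, at 26.6 to 51.4 in the other 8 and at 1.64 to 9.51 in the livers. In the high against the low tumors 46 of 49 were above 0, with a median of 0.535 and 6 higher and 0 lower at an unadjusted p under 0.05. Many of these genes are near-identical copies, so reads may have been divided among them, and most of their transcripts lack the poly-A tail by which these libraries were selected.

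In the high against the low tumors, brakes of the cell cycle had a median close to that of all genes. The p53 targets had a higher one, which did not hold for the 3 highest tumors against the other 8. The CDK inhibitors and pocket proteins had a median of 0.082 over 14 members (-0.008 with TMM scaling), and 1 of them, Rbl1, was higher at an unadjusted p under 0.05 (2 without tumor 1 or tumor 4). Cdkn1a, the p21 inhibitor, was at 192 ± 33.0 (SD, n = 5) in the high and 182 ± 32.0 in the low tumors, a difference below the spread within either group. The p53 target genes had a median of 0.302 over 20 members, with 3 higher and 0 lower (also 1 lower without tumor 10). Without both tumors of the shared mouse 1 was higher and the median was 0.206. In the 3 highest tumors against the other 8 the median was -0.105, with 0 higher and 2 lower. Mdm2, which degrades p53, was at 34.7, 25.9, 30.9, 43.3 and 36.6 in the high and at 30.3, 18.8, 17.1, 19.6 and 26.8 in the low tumors, and the middle tumor was higher than both groups at 73.3. Bax and Ccng1, 2 abundant targets, had log2 fold changes of 0.30 and 0.33.

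Apart from the lists, the genes with the smallest p among those whose groups did not overlap were named, 8 in each direction, all of which missed the adjusted threshold. Of these 16, 10 were also apart on the deposited values, all but Rrm2, Prelid2, Rab22a, Cavin3, Slco1a1 and Mup2. Those higher in the high tumors were Rrm2, Cd34, Akr1c18, Prelid2, Rab22a, Cavin3, Ppp2cb and Klf16, with adjusted p of 0.216 to 0.307 in limma. Akr1c18, a steroid-reducing enzyme, was at 310.3, 140.1, 142, 129.8 and 171 in the high and at 70.7, 79.0, 61.7, 76.4 and 76.7 in the low tumors, and at 0 to 1.64 in the livers. Both groups were far above the livers, and the log2 fold change between them was 1.21 (SE 0.23, limma adjusted p 0.216). Cd34, a marker of capillary endothelium and progenitor cells, was at 10.2, 10.4, 8.14, 15.3 and 13.3 in the high and at 5.05, 5.64, 5.14, 4.37 and 5.35 in the low tumors, and at 0 to 1.90 in the livers. Its highest values were in tumors 11 and 1, the high tumors with the lowest scores, and its log2 fold change was 1.002 (SE 0.19) and 0.43 with the ranking on deposited values. Prelid2, related to lipid carriers of mitochondria, was at 40.4 ± 6.84 (SD, n = 5) in the high and 21.4 ± 3.57 in the low tumors. Rab22a, a GTPase of endosome traffic, was at 32.4 ± 2.76 and 19.2 ± 2.63, and Ppp2cb, a catalytic subunit of phosphatase 2A, at 40.0 ± 5.67 and 23.9 ± 2.14. Cavin3, of caveolae, was at 6.48 ± 1.83 and 2.19 ± 0.716, and Klf16, a zinc finger factor, at 17.01 ± 2.19 and 9.32 ± 2.26.

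The 8 genes lower in the high tumors were Mup1, Vipr1, Upp2, Slco1a1, Hsd3b5, Fn3k, Ehd3 and Mup2, with adjusted p of 0.216 to 0.283 in limma. Mup1 (chromosome 4, 60498012 to 60501960), a major urinary protein made by the liver under growth hormone and androgen, was at 996, 4103, 1931, 3735 and 2915 in the high and at 8328, 14976, 19364, 8054 and 19317 in the low tumors. Every low tumor lay above every high tumor, and the log2 fold change was -2.42 (SE 0.41, limma adjusted p 0.216). In the livers Mup1 was at a median of 44075, but liver 1 was at 401, below every tumor. Mup2 had a log2 fold change of -1.55, and reads may be shared among the near-identical Mup copies. Slco1a1, a hepatocyte anion transporter, was at 2.04, 6.92, 8.14, 7.64 and 4.99 in the high and at 52.2, 28.2, 25.7, 10.9 and 48.1 in the low tumors, with a liver median of 131 and liver 1 at 0. Upp2, a uridine phosphorylase, was at 2.04, 20.8, 11.4, 7.64 and 6.65 in the high and at 143, 30.1, 39.4, 56.7 and 121 in the low tumors. Its log2 fold change was -2.91 (SE 0.54), the largest of the 16, and -1.28 with the ranking on deposited values. Vipr1, the receptor for vasoactive intestinal peptide, was at 4.11 ± 1.38 (SD, n = 5) in the high and 15.8 ± 6.03 in the low tumors. Hsd3b5, a male-specific steroid dehydrogenase, was at 0 to 2.04 in the high and 3.43 to 11.3 in the low tumors. Fn3k, which repairs glycated proteins, was at 1.51 ± 0.927 and 6.82 ± 2.13, and Ehd3, of endosome traffic and sinusoidal endothelium, at 17.9 ± 8.74 and 51.7 ± 7.43.

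**Figure D3:**
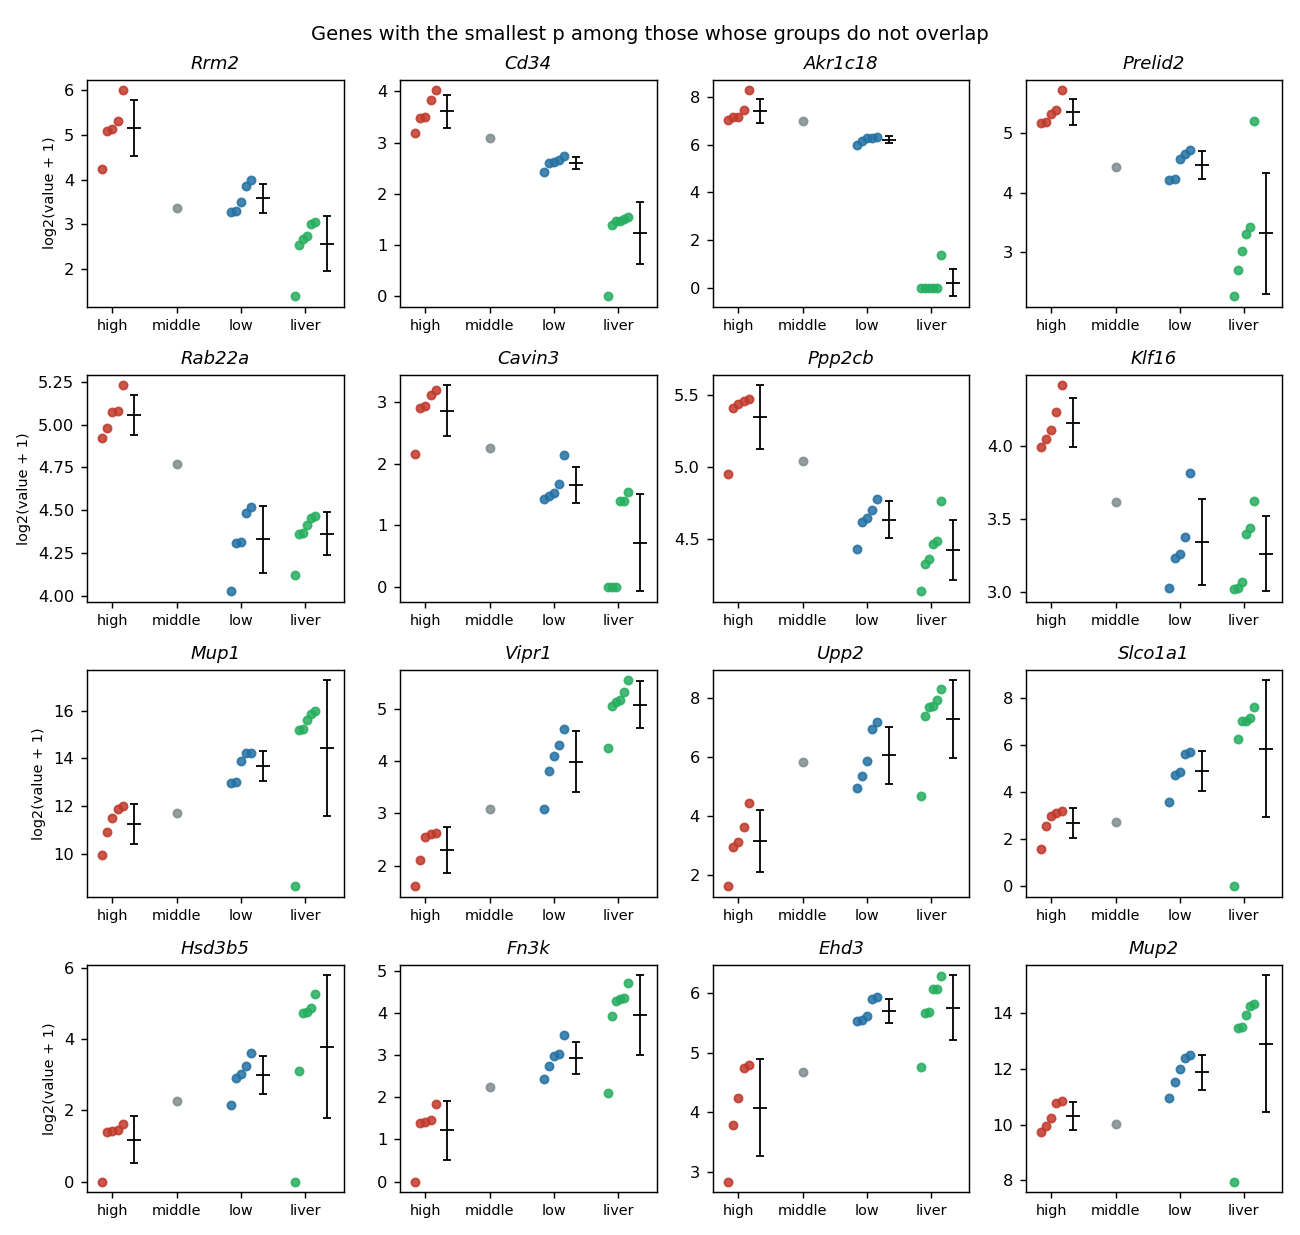
Each panel plots log2(value + 1) of a named gene in the 5 high tumors, the middle tumor, the 5 low tumors and the 6 livers, with points for samples and bars for the mean and SD. The first 8 genes lie higher and the last 8 lower in all 5 high than in all 5 low tumors, and for Mup1, Mup2, Slco1a1 and Hsd3b5 a single liver (liver 1) lies far below the other 5.

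Male-biased genes, which hepatocytes express under the pulsed growth hormone of males, lay lower in the high tumors as a list. Of 22 tested members, 12 were lower and 0 higher at an unadjusted p under 0.05, against 2.59% of all genes lower, and the median was -0.952 (-1.021 with TMM scaling). The means fell from livers through low to high tumors in 17 of 22. The same order was found in 15 of the 20 periportal genes and 12 of the 20 hepatocyte transcription factors described below. The share of all genes with this falling order was not counted. Without tumor 10 the count was 10 and the median -0.636, and without tumor 8 there were 11 lower and 1 higher. With the ranking on deposited values the list had 2 lower and 1 higher and a median of -0.447. Of all genes, 0.432% were lower under that ranking, with a median of 0.186. With tumor 2 ranked along with the others the list had 7 lower and 1 higher and a median of -0.71. Of all genes, 1.26% were lower in that setting, with a median of 0.272. Cyp7b1, an oxysterol hydroxylase, was at 16.3, 13.8, 19.5, 5.09 and 4.99 in the high and at 67.3, 45.1, 32.6, 19.6 and 57.1 in the low tumors, with a log2 fold change of -1.87 (SE 0.42, limma adjusted p 0.345) and -0.48 with the ranking on deposited values. Elovl3, a fatty acid elongase, was at 0 to 12.7 in the high and 4.37 to 92.5 in the low tumors. Igfals, which stabilizes IGF1 in blood, was at 11.3 ± 8.27 (SD, n = 5) and 36.3 ± 20.3, and Ghr, the growth hormone receptor, at 127 ± 40.8 and 193 ± 26.7. Mup20 and Cyp2d9, the most abundant members not past the unadjusted threshold, had log2 fold changes of -0.33 and -0.37. All mice were male, so this contrast is not between sexes.

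Periportal genes, expressed by hepatocytes near the portal vein for urea and glucose production, had a median of -1.086 over 20 members, 18 of them below 0, with 3 lower and 0 higher at an unadjusted p under 0.05. Tumor 10 set much of this median. Without it the median was -0.397, with 6 lower and 1 higher and 16 below 0, and without tumor 9 there were 6 lower without tumor 3 also 1 higher, and with the ranking on deposited values 0 in either direction and a median of -0.873. Cps1, the first enzyme of the urea cycle, was at 6.12 in tumor 10 and at 647, 770.0, 883 and 1035 in the other high tumors, against 1502, 811, 1263, 1161 and 1591 in the low tumors and 1576 to 4003 in the livers. Pigr, which carries antibodies into bile, was at 4.08, 118, 135, 117 and 213 in the high and at 288, 378, 387, 242 and 398 in the low tumors, and these groups did not overlap after rescaling. Asl, of the urea cycle, was at 104, 168, 140.0, 107 and 146 in the high and at 276, 156, 207, 201 and 294 in the low tumors, with a log2 fold change of -0.75 (SE 0.21, limma adjusted p 0.432) and -0.21 with the ranking on deposited values.

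Pericentral genes, expressed around the central vein, showed how far tumor 10 stood from the other high tumors. Their summed value was 28686 in tumor 10, 1319 to 2454 in the other 4 high tumors, 1629 to 5306 in the low tumors and 5924 to 10454 in the livers. Over 21 members the median was 0.069, with 1 higher and 0 lower at an unadjusted p under 0.05, and without tumor 10 it was -0.906, with 11 lower and 0 higher. Without any other tumor the median lay between -0.038 and 0.381, and the counts were 0 or 1 in each direction. With the ranking on deposited values all 21 members were above 0, with a median of 0.752 and 1 higher. With TMM scaling the main median was 0.002. Glul, glutamine synthetase, was at 12543 in tumor 10 and at 41.5 to 599 in the other 10 ranked tumors, and Cyp2e1, an ethanol-oxidizing P450, at 5075 in tumor 10 and 106 to 368 in the other high tumors against 406 to 1925 in the low tumors. Thus 4 of the 5 high tumors lay below every low tumor for Cyp2e1 and tumor 10 lay above all of them.

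**Figure D4:**
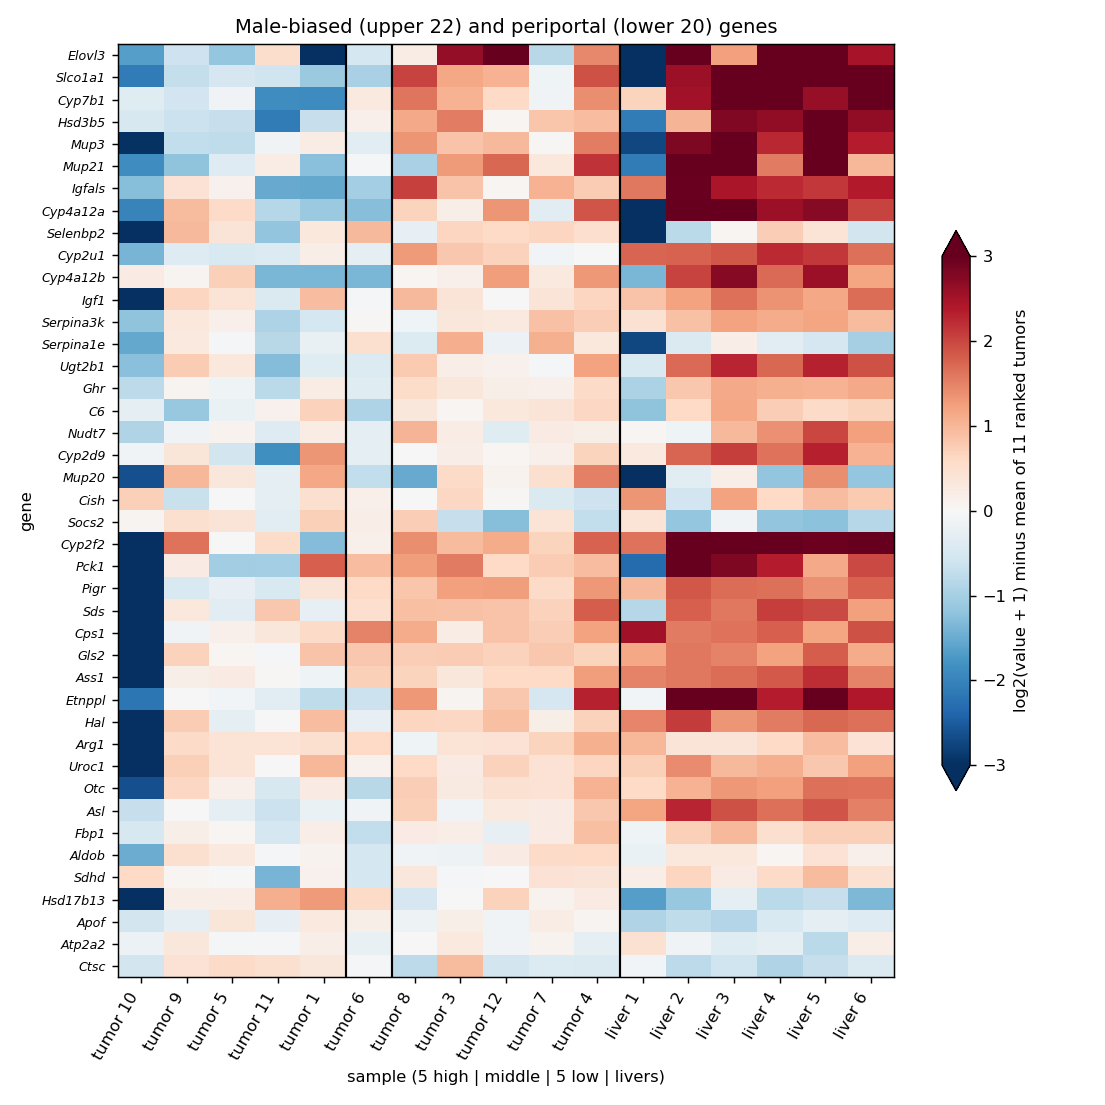
Rows are the 22 tested male-biased genes (upper) and the 20 tested periportal genes (lower), columns the ranked tumors from highest to lowest and the livers; colors give log2(value + 1) minus the mean of the 11 ranked tumors, clipped at 3. Tumor 10 is deep blue in most periportal rows, the male-biased rows are blue in several high tumors, and liver 1 is blue in several male-biased rows where most other livers are red.

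General hepatocyte genes had medians slightly below 0 in the main comparison. The hepatocyte transcription factors had a median of -0.215 over 20 members with 4 above 0. With the ranking on deposited values their median was 0.077 with 12 above 0, still below the median of 0.186 for all genes. In the main comparison 1, Xbp1, which drives secretory capacity, was higher at an unadjusted p under 0.05, without overlap between the groups after rescaling (349.7 ± 47.1 against 245 ± 49.5, SD, n = 5). Without tumor 1 there were also 4 lower, without tumor 3 or tumor 10 there were 2 and 1 lower, and with TMM scaling 2 lower. The secreted plasma proteins had a median of -0.132 over 24 members with 2 lower, Apob and Serpinc1 (0 to 1 without tumors 5, 9, 10, 11, 3, 4, 7 or 12). Alb was at 76234 ± 17710.0 in the high and 73425 ± 10247 in the low tumors, above the 35685 to 52497 of the livers.

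Oncofetal and progenitor genes, which the fetal liver and many liver cancers express, had a median of 0.67 over 22 members, with 8 higher and 0 lower at an unadjusted p under 0.05. The count was 4 without tumor 4 or tumor 11, 5 without tumor 5 or tumor 10, 9 higher and 1 lower without tumor 1, 5 with TMM scaling and 2 higher and 1 lower with the ranking on deposited values. Afp, alpha-fetoprotein, was at 335, 118, 122, 78.9 and 66.5 in the high and at 74.0, 75.2, 42.8, 63.3 and 26.8 in the low tumors, and at 0 to 4.91 in the livers. Of the high tumors only tumor 1 lay within the range of the low group, and the log2 fold change was 1.18 (SE 0.42, limma adjusted p 0.448). Lcn2, a secreted iron carrier of inflamed epithelium, was at 1369.8, 557, 1377, 1558 and 879 in the high and at 560.2, 359, 589, 738 and 374 in the low tumors, and highest in the middle tumor at 2672. Krt18, a keratin of liver epithelium, was at 454 ± 160.5 (SD, n = 5) and 267 ± 71.8. H19, an imprinted noncoding RNA of the fetal liver, had a log2 fold change of -1.66 and was not past the unadjusted threshold.

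Among metabolic genes, glycolysis and glucose uptake had a median of 0.343 over 23 members with 4 higher, Pgk1, Ldha, Pfkl and Aldoa. Without tumor 10 the count was 2 and the median 0.096, without tumor 9 the count was 7, and without tumor 1 there was also 1 lower. It was 2 with TMM scaling and 1 with the ranking on deposited values. Pgk1, a kinase of lower glycolysis, was at 708, 683, 534, 517 and 477 in the high and at 409, 423, 379, 375 and 401 in the low tumors, with no overlap after rescaling and a log2 fold change of 0.54 (SE 0.15, limma adjusted p 0.435). The livers spanned both groups, from 314 to 659. Ldha, lactate dehydrogenase, was at 2162, 998, 1390.3, 2078 and 1169.8 in the high and at 745, 1260.4, 1149.6, 812 and 1059 in the low tumors. Its log2 fold change was 0.59, and 0.00 with the ranking on deposited values.

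Serine, one-carbon and polyamine synthesis had a median of 0.252 over 19 members, with Psat1 and Mthfd2 higher and Mat1a and Mthfd1 lower. The count of 2 higher was 0 without tumor 9, 10, 11 or 4 and 1 without tumor 5 or tumor 12, and without tumor 4 there were 3 lower. There were 0 higher with TMM scaling, and 1 higher and 0 lower with the ranking on deposited values. Psat1, of serine synthesis, was at 81.7, 74.4, 24.4, 30.6 and 13.3 in the high and at 21.9, 24.5, 10.3, 21.8 and 10.7 in the low tumors, and Mat1a, the methionine adenosyltransferase of adult liver, at 178, 562, 329, 178 and 359 and at 819, 476, 505, 639.5 and 697. Ribosome biogenesis, which growing cells need, had a median of 0.21 over 22 members with 2 higher, Npm1 and Nop58 (1 without tumor 5, 9, 10, 11, 7 or 12 or with TMM scaling, 5 without tumor 1 and 6 with the ranking on deposited values). Sterol and fatty acid synthesis had 0 of 24 members past the unadjusted threshold (0 to 1 with single tumors left out) and a median of -0.072. Fatty acid oxidation and ketogenesis had 1 of 25, Acsl1, lower (0 without tumors 5, 9, 11, 4, 8 or 12, and 1 higher without tumors 1, 9, 8 or 12) and a median of 0.010, or -0.082 with TMM scaling.

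The chimeric Met receptor signals through ERK, and Met levels overlapped between the groups. Met was at 255 ± 61.8 (SD, n = 5) in the high and 233 ± 35.0 in the low tumors, against 26.8 to 77.7 in the livers, with a log2 fold change of 0.12 (SE 0.19, limma adjusted p 0.884). How far reads of the transgene were counted as Met is not known here. The receptor tyrosine kinases and ligands had 0 of 18 members past the unadjusted threshold (at most 1 in each direction with single tumors left out) and a median of -0.192. The ERK feedback and early response genes had a median of 0.216 over 14 members, with 4 higher, Spred1, Dusp6, Etv5 and Dusp4 (also 1 lower without tumor 11), and 0 higher and 1 lower with the ranking on deposited values. Dusp4, a phosphatase that ERK induces and that acts on it, was at 18.4, 12.1, 16.3, 22.9 and 23.3 in the high and at 11.8, 7.52, 12.0, 8.73 and 8.92 in the low tumors, with livers at 1.78 to 5.34. After rescaling every high tumor lay above every low tumor, by a log2 fold change of 0.84 (SE 0.21, limma adjusted p 0.402). Dusp6, a phosphatase specific for ERK, was at 109 ± 25.9 and 68.02 ± 25.0. Egr1 and Jun, early response genes, had log2 fold changes of -0.76 and -0.04.

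**Figure D5:**
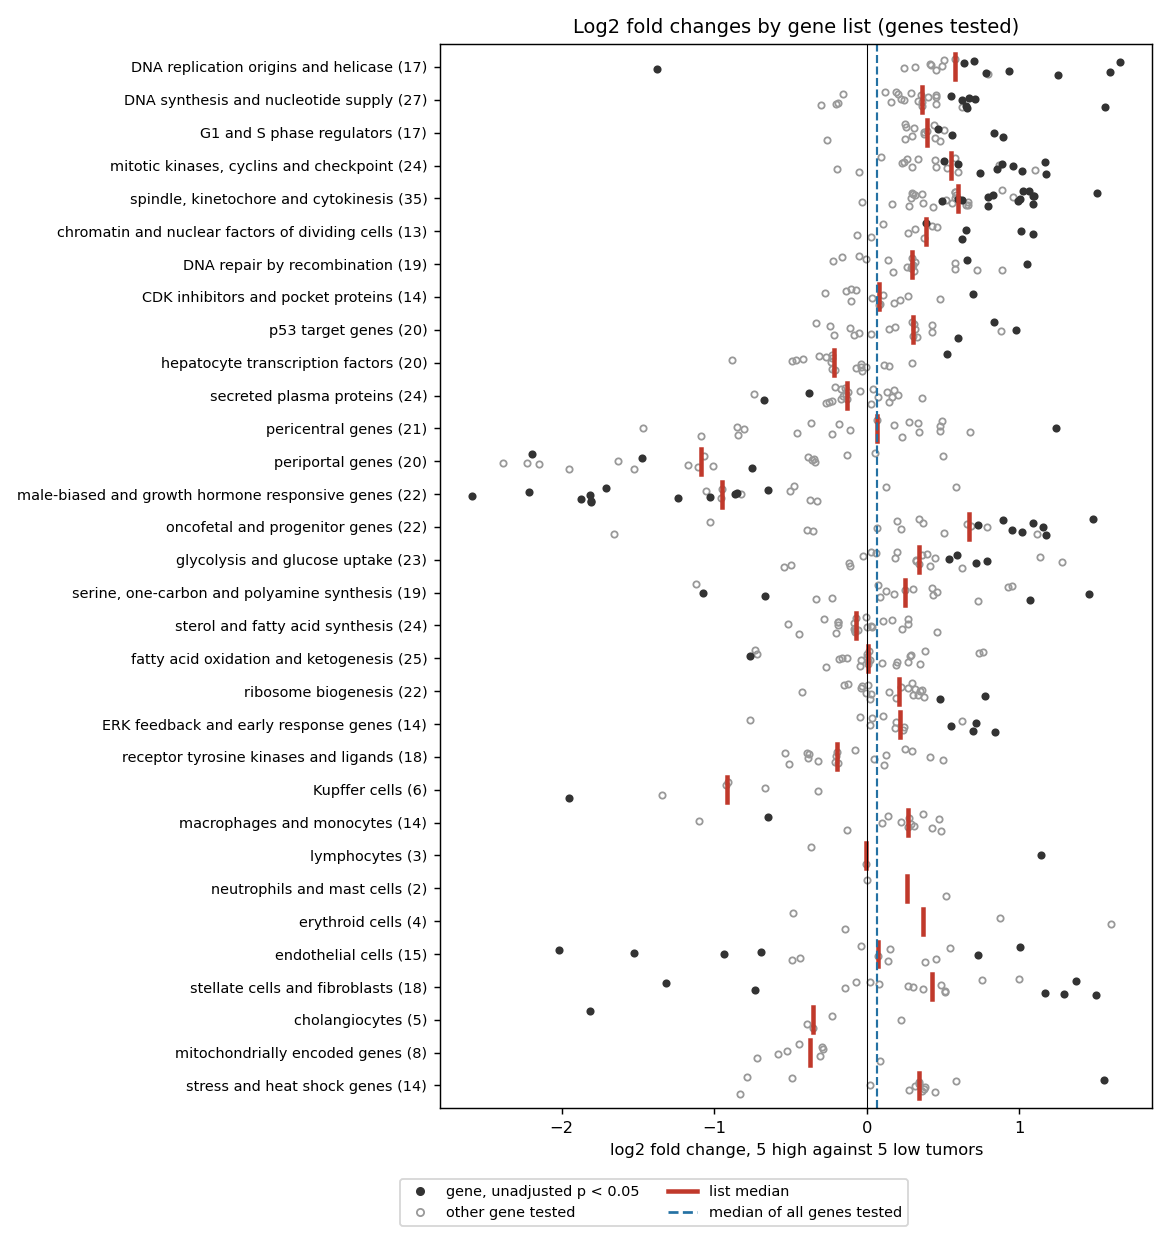
Each row is a gene list with the number of genes tested, and the points are the log2 fold changes of its genes between 5 high and 5 low tumors, filled where the unadjusted p is under 0.05; red bars are list medians and the dashed line is the median of all genes. The medians of the 7 cell cycle lists lie between 0.294 and 0.599, and those of the periportal and male-biased lists at -1.086 and -0.952.

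Markers of other cells were measured beside these results. Kupffer cell markers summed to 5.09 to 142 in the high and 45.8 to 99.3 in the low tumors, with 0 of 6 tested members above 0 and a median of -0.914. Clec4f, their lectin receptor, was at 0, 6.92, 27.7, 2.55 and 3.32 in the high and at 30.3, 20.7, 18.8, 10.9 and 17.8 in the low tumors. Tumor 5 lay within the low group, and without it 5 Kupffer genes rather than 1 were lower at an unadjusted p under 0.05 (2 without tumor 9 or tumor 10). With the ranking on deposited values the median was 0.192, of the opposite sign but close to the 0.186 of all genes. Macrophage and monocyte markers summed to 798, 396, 581, 148 and 148 in the high and to 194 to 364 in the low tumors, so they were high in the 3 tumors with the highest scores and low in tumors 11 and 1. The part of macrophages in the cell cycle values was not tested.

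Stellate cell and fibroblast markers summed to 289 to 823 in the high and 205 to 626 in the low tumors, with a median of 0.43 over 18 members, 4 higher (3 without tumors 10, 4 or 12, 7 without tumor 8 or with the ranking on deposited values) and 2 lower (0 with that ranking). Those higher were the collagen genes Col1a1, Col1a2 and Col3a1 and Thy1, and those lower were Lrat, which stores vitamin A in resting stellate cells, and Dcn, decorin. Lower counts of 1 were seen without tumors 1, 10, 11, 4, 8 or 12. Col1a1 was at 127, 27.7, 44.0, 28.0 and 23.3 in the high and at 26.9, 11.3, 13.7, 26.2 and 3.57 in the low tumors, and at 111 in the middle tumor. Endothelial markers summed to 176 to 321 in the high and 220 to 296 in the low tumors, with a median of 0.077 (-0.005 with TMM scaling). Cd34 and Emcn were higher and the sinusoidal genes Clec4g, Stab2, Stab1 and Lyve1 lower, and without tumor 11 there were 2 lower, without both tumors of the shared mouse 0 lower, and with the ranking on deposited values 0 in either direction. Clec4g, a lectin of liver sinusoids, was at 0, 25.9, 14.7, 2.55 and 16.6 in the high and at 43.7, 20.7, 36.0, 26.2 and 28.5 in the low tumors.

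Lymphocyte markers summed to 5.09 to 104 in the high and 9.41 to 34.9 in the low tumors, and Ms4a1, Ncr1 and Klrb1c were at 0 in all 10. Neutrophil and mast cell markers summed to 0 to 122 and 1.68 to 5.64, with Mpo, Elane, Ltf and Camp at 0 in all 10. Erythroid markers summed to 24.2 to 129 and 35.3 to 60.6, with 7 of 12, among them Klf1 and Gata1, at 0 in all 10. Cholangiocyte markers summed to 280 to 2808 and 644 to 2238, with Krt7, Cftr, Muc1 and Sctr at 0 in all 10. Tff3, a secreted trefoil peptide that made up much of this sum, was at 81.7, 555, 404, 947 and 278 in the high and at 422, 1618, 1734, 1556 and 1430.2 in the low tumors. The 8 mitochondrially encoded genes in the table had a median of -0.375 with 0 past the unadjusted threshold, and the stress and heat shock genes had a median of 0.342 over 14 members with 1, Nqo1, higher (3 without tumors 9, 7 or 8, and also 1 lower without tumor 10). The part of these cells and signals in the differences between high and low tumors was not tested.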

How the data were processed

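Poly-A RNA of 12 advanced tumors and 6 non-tumoral livers from 17 male Alb-R26Met mice was sequenced. The authors quantified transcripts with Salmon on GRCm38 (mm10) and deposited 1 table of 28442 genes, whose values are scores, namely TPM (abundances that take gene length into account) rounded to whole numbers, although the table is labelled as counts. 8 lines with an extra separator were read by name, and 12874 genes were at 0 in every sample. Siglece and Gm26917 were dropped, each sample was rescaled to 1000000, and 11 tumors (all but tumor 2) were ranked by the mean log2(value + 1) of Mki67, Top2a, Ccnb1 and Cdk1, which were left out of the tests.

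The 5 highest and 5 lowest tumors were compared with limma 3.58.1 (R 4.3.3, mean-variance trend) on log2(value + 1), two-sided, over 12269 genes with a deposited value of at least 1 in at least 5 of the 10 tumors, with Benjamini-Hochberg adjustment over all of them. Fold changes are on the log2(value + 1) scale, which understates the change of low genes. The values hold no read counts, so no count model was used. Besides the 4 ranking genes, the text names the 8 genes per direction with the smallest p among those that averaged 2 or more on the log2 scale and whose groups did not overlap, because fewer passed the adjusted threshold, and members of each list past the unadjusted threshold or abundant. Other genes are said to have been chosen after their values were seen. The groups and gene lists were chosen with earlier results of these data known. Alternatives covered scaling, pseudocount, filters, covariates, group size, ranking scale and each tumor left out. The scripts were tested on simulated data and ran under Python 3.11.15 with numpy 2.4.6, pandas 2.3.3 and matplotlib 3.10.9. Promoter sequences came from RefSeq.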

Additional observations from a re-analysis of the deposited data

Results flagged for a closer look

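Among the 16 named genes and the 4 ranking genes, 60 groups of samples were looked at for a sample far from the others, by the gap to its nearest neighbor as a share of the range of the group against the 95% critical value of Dixon. Chance flags about 1 in 20 groups, or 3 of 60, and 9 were found. In the high tumors, the share was 0.7711 for Akr1c18 in tumor 10, which lay above the other 4. It was 0.8668 for Ppp2cb in tumor 1 and 0.7975 for Hsd3b5 in tumor 11, which lay below them. In the low tumors, the share was 0.7132 for Cavin3 in tumor 12, which lay above the other 4. In the livers, liver 1 lay apart with a share of 0.8515 for Cd34, 1.0 for Akr1c18, 0.8163 for Prelid2 and 0.6829 for Rab22a, and liver 3 with a share of 1.0 for Top2a. The Cd34, Akr1c18, Top2a and Hsd3b5 values concerned are deposited values of 0 or 1 set against 1 or 0, apart from tumor 10 for Akr1c18. The Cavin3 value of tumor 12 is a deposited value of 2 set against 1 in the other low tumors.

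Tumor 2 and tumor 6, which belong to neither group of the main comparison, had ranking scores of 1.6534 and 2.5608, above the highest liver at 0.737. The score of tumor 2 rests on a deposited value of 1 for Mki67 and Top2a, rescaled to 8.90, and on 0 for Ccnb1 and Cdk1. That liver, liver 3, also had a deposited value of 1 for 2 genes, Top2a and Cdk1, rescaled to 1.78. The excess of tumor 2 over liver 3 thus came from the rescaling.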

How the results depend on the processing

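No gene was called between the 5 high and the 5 low tumors, and the same count of 0 was reached under every alternative with these groups or groups chosen anew, except that the slope on the score called 5 genes and the 3 highest against the other 8 tumors called 13. With each tumor left out in turn the count of called genes was 0 throughout, and the genes at an unadjusted p under 0.05 numbered 598 to 1136 higher and 206 to 662 lower, against 882 and 318. Without tumor 1 there were 662 lower and without tumor 8 there were 206 lower. TMM scaling gave 459 higher and 538 lower, deposited values without rescaling 394 higher, and the slope 1661 higher. The 3 highest against the 3 lowest gave 1489 higher, and the 3 highest against the other 8 gave 837 lower. There were 160 lower without both tumors of the shared mouse, 152 with tumor 2 ranked, 492 with sample quality weights and 53 with the ranking on deposited values. The cause of these shifts was not tested. The E19 tumors alone, the 3 highest against the other 8 and the ranking on deposited values were chosen after seeing the data. Over 26 alternatives, none of 413 values of the 16 named genes passed the adjusted threshold, and their sign, which their choice for groups apart mostly fixes, says nothing of stability. In the same alternatives, 387 of 1664 counts of list members moved by over 1.5 times. No paired analysis was possible because the replicate numbers only number the tumors, and a single mouse, that of tumors 11 and 12, gave a tumor to both groups. Rounding to whole numbers limits genes near 0, and with 5 tumors per group chosen along a continuous score, differences smaller than the spread within a group were not detectable. Some differences larger than that spread, such as those of Rab22a and Ppp2cb, also missed the adjusted threshold.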

Other observations

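Tumor 10, with the highest ranking score, had several values apart from those of the other 10 ranked tumors, chosen here after they were seen. Its mast cell proteases Mcpt4 and Tpsb2 were at 42.9 and 38.8, against 0 to 1.88 in the other 10 ranked tumors and 0 in the livers, and Cpa3, mast cell carboxypeptidase, was at 16.3 against 0 in all of them. Its lymphocyte markers summed to 104, against 5.09 to 44.0 in the other 10. Gulo, the enzyme that makes vitamin C in mice, was at 1456, against 61.1 to 288 in the other 10. Igf1, the growth factor that the liver secretes under growth hormone, was at 10.2 in tumor 10 and at 125 to 329.7 in the other 10.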
